A study of Mus musculus with 34 samples.

Results

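Hepatocyte-like cells that had been derived, through a state resembling extraembryonic endoderm (XEN), from chemically treated mouse fibroblasts were compared with mouse embryonic fibroblasts, the cell type from which the route starts. The comparison used 6 of the 34 RNA sequencing libraries of the study, with 4 libraries of hepatocyte-like cells and 2 of fibroblasts, chosen by their labels. All carried the strain label Mapttm2(EGFP)Klt/J. The labels gave no age, passage, culture time or chemical for these libraries, and did not say whether libraries of a group came from separate cultures, so that every p-value measures the spread between libraries only. The same deposited table held 2 libraries labelled hepatocyte and 2 labelled hepatic tissue, of the same strain label, which are quoted for reference levels. These 4 do not pair by label: over the genes tested, Pearson's r of log2(FPKM + 1) was 0.982 between hepatocyte library 1 and tissue library 2 and 0.963 between hepatocyte library 2 and tissue library 1, against 0.935 between the hepatocyte libraries and 0.940 between the tissue libraries. Hepatocyte levels quoted below are therefore those of the libraries so labelled.

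Hepatocytes are the secretory and metabolic epithelial cells of the liver. In the embryo they arise from endoderm under transcription factors of the FOXA, GATA and HNF4 families. They make alpha-fetoprotein before birth and turn on drug-metabolising cytochrome P450 enzymes as they mature. Extraembryonic endoderm, the tissue that lines the yolk sac, uses many of the same transcription factors and secretes a similar set of plasma proteins. Fibroblasts are mesenchymal cells that make collagens, matrix proteases and chemokines.

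In hepatocyte-like cells most listed genes of epithelia, stomach and visceral endoderm were called higher than in fibroblasts, and most listed genes of fibroblasts were called lower. The stomach peptide genes Tff1, Gkn2, Tff3 and Gkn1 and the keratin genes Krt8, Krt18 and Krt19 were among the 15 largest increases, beside the plasma protein genes Apoa1, Afp and Ttr. Collagens, matrix metalloproteinases and macrophage-associated Lyz2 were among the 15 largest decreases. Genes of liver function were uneven. Alb, Cyp3a11, Cps1 and Tat were higher in hepatocyte-like libraries 1 and 2 than in libraries 3 and 4. Cyp2e1, Otc and F9 were under 1 FPKM in all 4.

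The sequences below are the promoters of 3 genes that were higher and 2 that were lower in hepatocyte-like cells, shown because these genes mark the gastric, fetal liver, lipoprotein and matrix protease changes. They come from RefSeq (GRCm38.p6) and run from 250 bases before to 50 bases after the annotated start, on the strand of the gene. Capitals mark matches, on either strand, to 4 motifs: the FOXA motif TGTTTAC or TGTTTGC, the GATA motif AGATAA, the TATA box TATAAA and the AP-1 motif TGACTCA.
Gkn2, a gastrokine gene, chr6:87373115-87373414, plus strand: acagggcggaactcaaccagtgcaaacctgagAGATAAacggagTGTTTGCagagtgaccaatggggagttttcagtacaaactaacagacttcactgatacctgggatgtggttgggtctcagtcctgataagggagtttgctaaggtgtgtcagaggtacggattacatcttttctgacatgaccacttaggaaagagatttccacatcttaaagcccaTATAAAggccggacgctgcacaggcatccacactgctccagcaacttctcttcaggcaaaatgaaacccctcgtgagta
Afp, alpha-fetoprotein, chr5:90490464-90490763, plus strand: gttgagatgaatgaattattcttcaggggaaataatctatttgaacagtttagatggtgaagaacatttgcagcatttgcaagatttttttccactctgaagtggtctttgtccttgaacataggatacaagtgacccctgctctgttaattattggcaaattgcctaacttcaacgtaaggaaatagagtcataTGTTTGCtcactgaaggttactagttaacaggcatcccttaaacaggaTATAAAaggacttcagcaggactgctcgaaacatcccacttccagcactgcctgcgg
Apoa1, the main protein of high-density lipoprotein, chr9:46228380-46228679, plus strand: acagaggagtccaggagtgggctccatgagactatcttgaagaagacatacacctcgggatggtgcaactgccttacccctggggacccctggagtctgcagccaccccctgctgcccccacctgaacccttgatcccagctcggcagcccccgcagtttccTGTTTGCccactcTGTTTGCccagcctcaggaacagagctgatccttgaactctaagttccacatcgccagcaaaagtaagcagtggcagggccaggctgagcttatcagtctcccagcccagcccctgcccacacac
Mmp3, stromelysin, chr9:7445572-7445871, plus strand: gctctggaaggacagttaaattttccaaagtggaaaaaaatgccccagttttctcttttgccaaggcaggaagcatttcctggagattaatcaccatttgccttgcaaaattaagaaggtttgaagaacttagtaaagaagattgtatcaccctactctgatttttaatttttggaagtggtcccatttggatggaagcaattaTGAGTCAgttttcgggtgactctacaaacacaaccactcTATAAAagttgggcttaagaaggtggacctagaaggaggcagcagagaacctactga
Mmp13, a collagenase, chr9:7272264-7272563, plus strand: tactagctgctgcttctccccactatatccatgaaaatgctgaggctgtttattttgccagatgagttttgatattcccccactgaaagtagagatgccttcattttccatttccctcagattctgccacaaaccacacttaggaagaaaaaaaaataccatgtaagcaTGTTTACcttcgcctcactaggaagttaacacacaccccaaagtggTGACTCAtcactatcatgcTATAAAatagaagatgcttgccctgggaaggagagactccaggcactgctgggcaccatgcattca

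The FOXA motif was found in the promoters of Gkn2, Afp, Apoa1 and Mmp13 and, over all 32851 promoters of the table, in 8.48%. Apoa1 held it at 2 places, which start 88 and 75 bases before the annotated start. The GATA motif was found in Gkn2 and in 11.2% of all. The AP-1 motif was found in both metalloproteinase promoters and in 5.2% of all, and the TATA box in every promoter shown except that of Apoa1 and in 13.6% of all. Among promoters of genes called higher, 9.22% held the FOXA motif and 6.99% the AP-1 motif, against 5.88% and 5.23% among genes called lower and 6.52% and 4.34% among all genes tested. These matches describe letters in the window and were not tested.

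Values are FPKM, which scale fragments by gene length and by the mapped fragments of the library, as the authors deposited them, and are given in the order of hepatocyte-like libraries 1 to 4 and fibroblast libraries 1 and 2. Total read counts were not used here. Depth, judged from the smallest values, came to 6200000 to 10700000 fragments in the 6 libraries, with an uncertainty of up to 2-fold. At least 1 FPKM was reached by 12293 to 13383 genes. Genes above 0 FPKM numbered 15930, 14555, 20217 and 18241 in the hepatocyte-like libraries and 20100 and 19110 in the fibroblast libraries. Hepatocyte-like libraries 1 and 2 had each been run on a flow cell of their own, whereas libraries 3 and 4 shared a flow cell with both fibroblast libraries, so for libraries 1 and 2 the flow cell and the culture cannot be told apart.

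The labels were checked against defining markers. The 8 hepatocyte markers, among them Alb, Ttr and Hnf4a, summed to 7808, 6974, 1464 and 2271 FPKM in the hepatocyte-like libraries. Their sums were 1.3 and 2.99 FPKM in the fibroblast libraries, and 31164 and 72389 FPKM in the hepatocyte libraries. Alb, listed at 0 in hepatocyte library 1 and at 51325 FPKM in library 2, enters only the second of these hepatocyte sums. The 5 gastric markers summed to 24006, 14119, 31479.9 and 35094 FPKM in the hepatocyte-like libraries, more than the hepatocyte markers in each of them, and to 0.292 and 8.45 FPKM in the fibroblast libraries. The 6 fibroblast markers summed to 3239.6 and 3565 FPKM in the fibroblast libraries and to 16, 41.1, 120.3 and 7.21 FPKM in the hepatocyte-like libraries, of which library 3 was the highest. In each hepatocyte-like library the sum of the hepatocyte markers was thus above both fibroblast libraries and below both hepatocyte libraries. Single markers did not all follow the sum. Ttr was at 697 FPKM in hepatocyte-like library 1 and at 663 FPKM in hepatocyte library 1. All 8 hepatocyte markers were above 0 in at least 1 hepatocyte-like library.

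**Figure D1:**
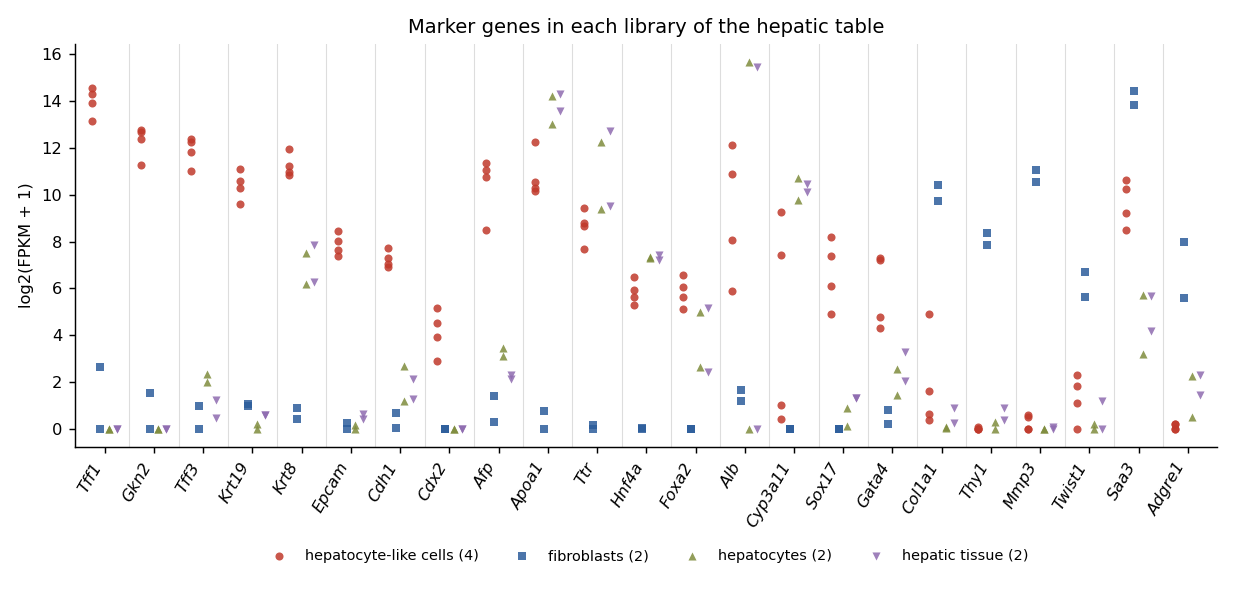
Expression of 23 marker genes in each library of the hepatic table. The vertical axis is log2(FPKM + 1), each point is 1 library and colours mark the 4 groups. Tff1, Gkn2, Krt19 and Cdx2 are high in the 4 hepatocyte-like libraries only, Alb and Cyp3a11 are spread widely among those 4 libraries, and Col1a1, Thy1, Mmp3 and Twist1 are high in the 2 fibroblast libraries.

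Of 14928 genes tested with limma on log2(FPKM + 1), 4191 (28.1%) met both criteria for a call, a Benjamini-Hochberg p under 0.05 adjusted over all genes tested and a log2 difference of 1 or more in either direction. The 4 hepatocyte-like and 2 fibroblast values did not overlap in 7652 genes (51.3%). Of the genes tested, 1821 (12.2%) were higher and 2370 (15.9%) were lower in hepatocyte-like cells. The median log2 difference of all genes tested was 0.097. The 4 libraries of hepatocytes and tissue shared the fit and added to the estimate of the spread. Where all 4 were listed at 0, they added no difference between libraries to that estimate. Tff1 and Cdx2 are such genes, with limma adjusted p of 1.5e-06 and 0.00035. With only the 6 libraries compared in the fit, these were 1.0e-04 and 0.0033. Alb went the other way, from 0.23 to 0.012. When the fit held only the 6 libraries compared, 3757 genes were called, with 1627 higher and 2130 lower. On the flow cell shared by hepatocyte-like libraries 3 and 4 and both fibroblast libraries, 4126 genes were called, of which 3324 were among the 4191. With fibroblast library 1 or 2 left out, 1373 or 1356 genes were called, of which 1357 and 1343 were among the 4191, and the single fibroblast library left was then assumed to vary like the other groups. A gene expressed in fibroblasts alone cannot pass the filter in those fits. The counts and medians given for gene lists below include genes that passed the filter (1 FPKM in 2 of the 6 libraries) through 1 group alone. So did the 1516 genes under 1 FPKM in both fibroblast libraries. The counts are to be read against the shares of all genes tested. With no filter on low values, some medians were smaller in size. Among these were 4.77 in place of 6.75 for gastric and trefoil genes and 1.12 in place of 2.12 for liver transcription factors. Cytochrome P450 genes had 1.05 in place of 2.30, urea cycle genes 0.51 in place of 1.04 and complement genes -0.41 in place of -1.15. Gluconeogenesis genes had 0.52 in place of 1.25, coagulation genes 1.88 in place of 2.52 and intestinal genes 2.93 in place of 3.68. In bulk RNA, fewer cells of a type and less RNA per cell cannot be told apart.

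**Figure D2:**
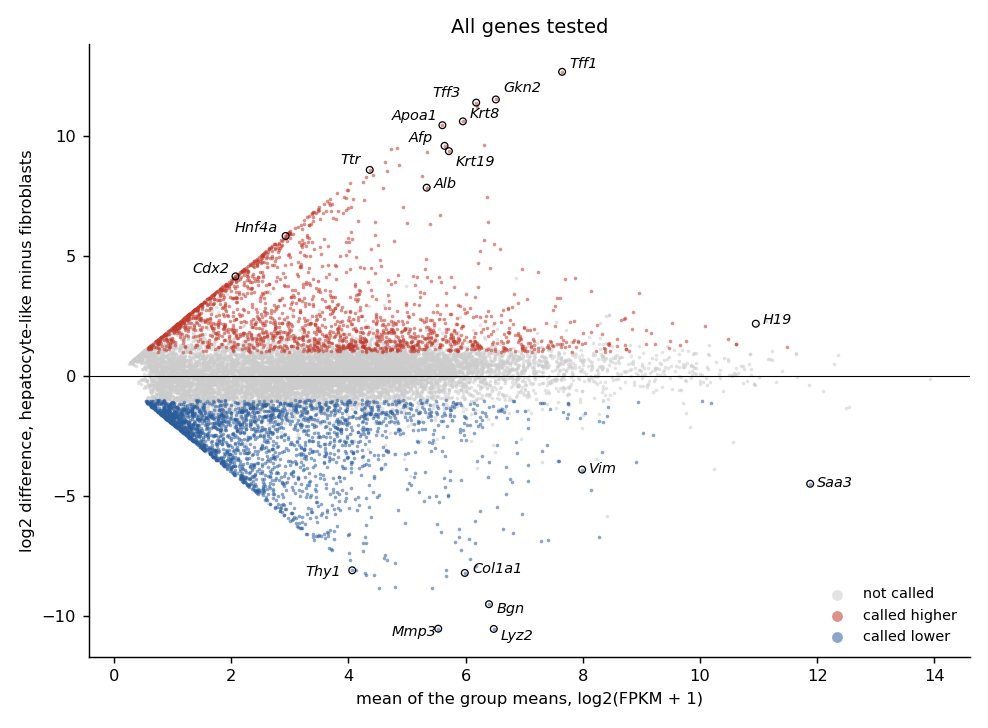
Difference between hepatocyte-like cells and fibroblasts for the 14928 genes tested. The horizontal axis is the mean of the 2 group means in log2(FPKM + 1), the vertical axis the log2 difference, red, blue and grey points are genes called higher, called lower and not called, and black circles mark the genes written beside them. Tff1 lies highest at 12.65, and Lyz2 and Mmp3 lie lowest at -10.53 and -10.52.

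Stomach-type secretory genes gave the largest increases. Of 21 gastric and trefoil genes, 16 passed the filter, 14 were called higher and none lower, against 12.2% of all genes tested called higher and 15.9% called lower. Their median log2 difference was 6.75, against 0.097 over all genes tested. The listed genes together made up 4.01, 2.05, 4.96 and 5.5% of the summed FPKM in the hepatocyte-like libraries and 0.00116 and 0.00207% in the fibroblast libraries. With fibroblast library 1 and 2 left out in turn, 12 and 12 members were called higher.

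Tff1 (ENSMUSG00000024032, chr17:31161395-31165277, mm10), a trefoil peptide gene of the gastric surface mucous cell, stood at 15200.0, 9133, 19952 and 23962 FPKM in hepatocyte-like cells and at 0 and 5.25 FPKM in fibroblasts. Its log2 difference was 12.65 ± 0.64 (SE) (adjusted p = 1.5e-06), and it was listed at 0 in both hepatocyte libraries and both tissue libraries. This was the largest of the 1821 increases among genes with a mean of at least 10 FPKM in 1 group. The neighbouring genes Tff2 (chr17:31141049-31144282) and Tff3 (chr17:31125306-31129646) encode the remaining trefoil peptides, of gastric gland mucus and intestinal goblet cells. Tff3 read 5327, 2072, 3667 and 4803 FPKM against 0 and 0.978 FPKM, a difference of 11.37 ± 0.45 (SE), and Tff2 read 114, 158, 89.4 and 137 FPKM against 0.281 and 0 FPKM, a difference of 6.76 ± 0.35 (SE). All 3 genes of the cluster were higher in each of the 4 libraries than in either fibroblast library.

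The gastrokine genes Gkn1 (chr6:87345650-87350942) and Gkn2 (chr6:87373357-87379497), which encode secreted proteins of the stomach lining, lie side by side on chromosome 6. Gkn1 stood at 3341, 2380.4, 4533 and 4353 FPKM and Gkn2 at 5347, 2447, 6883 and 6538 FPKM in hepatocyte-like cells, and the fibroblast values were 0 and 1.32 FPKM and 0 and 1.88 FPKM. Their log2 differences were 11.18 ± 0.38 (SE) and 11.50 ± 0.50 (SE). Psca, a surface antigen of gastric and bladder epithelium, was at 1827, 654, 1077 and 858 FPKM against 1.2 and 0.183 FPKM. Muc5ac, the main mucin of the gastric surface, differed more between libraries, at 3.73, 0.536, 22 and 104 FPKM, and missed the threshold with an adjusted p of 0.075, which was 0.011 without library 2. The fibroblast libraries were listed at 0.0111 and 0 FPKM. Its values in libraries 3 and 4 were above those in libraries 1 and 2. Sox2, a transcription factor of the foregut, stood at 0, 0.334, 0.05 and 0.063 FPKM in hepatocyte-like cells and 4.16 and 0.966 FPKM in fibroblasts, and did not pass the filter.

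Intestinal genes were raised as well. Of 29 listed, 28 were in the table and 24 passed the filter, of which 16 were called higher and 1 lower, with a median log2 difference of 3.68. Without fibroblast library 1 and 2 in turn, 11 and 11 were called higher. Cdx2, the transcription factor that sets intestinal identity and also acts in early extraembryonic tissue, stood at 14.4, 6.53, 22.1 and 35.3 FPKM in hepatocyte-like cells and was listed at 0 in both fibroblast libraries and in all 4 hepatocyte and tissue libraries (adjusted p = 0.00035). Its partner Cdx1 did not pass the filter and reached 0.0759 FPKM in library 4 only.

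Vil1, which encodes villin of the brush border, was at 34.1, 37.9, 23.7 and 94.8 FPKM against 0 and 0.113 FPKM, a log2 difference of 5.33 ± 0.49 (SE). Lgals4, a gut galectin, read 405, 228, 893 and 638 FPKM against 3.84 and 3.41 FPKM, a difference of 6.70 ± 0.61 (SE). Krt20, a keratin of differentiated gut and gastric surface cells, read 70.6, 82.2, 104 and 473 FPKM against 0.748 and 1.5 FPKM, a difference of 5.97 ± 0.67 (SE). All 3 were highest in library 3 or 4. Of the 24 members, 18 were higher in both libraries 3 and 4 than in libraries 1 and 2, as were 4009 (26.9%) of all genes tested. The stem cell receptor gene Lgr5 was the member called lower, with 0, 0, 0.0202 and 0.0254 FPKM in hepatocyte-like cells and 1.93 and 9.03 FPKM in fibroblasts.

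Epithelial genes were higher throughout. Of 29 junction and keratin genes, 27 passed the filter and all 27 were called higher, also without either fibroblast library and with only the 6 libraries in the fit, and the median log2 difference was 6.29. Krt8 and Krt18, the keratin pair of simple epithelia, stood at 2392, 2006, 1839 and 3955 FPKM and 1914, 2339.8, 1416 and 3802 FPKM against fibroblast values of 0.346 and 0.844 FPKM and 2.11 and 1.63 FPKM. Their log2 differences were 10.59 ± 0.52 (SE) and 9.60 ± 0.37 (SE). Krt19, a keratin of ducts and gut, was at 2157, 1255, 776 and 1529 FPKM against 1.12 and 0.992 FPKM, a difference of 9.35 ± 0.37 (SE) (adjusted p = 5.1e-07).

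Adhesion genes followed the keratins. The E-cadherin gene Cdh1 stood at 157, 129, 121 and 213 FPKM against 0.0426 and 0.622 FPKM, with a log2 difference of 6.87 ± 0.47 (SE). Epcam, an epithelial adhesion gene, was at 259, 166, 198 and 344 FPKM against 0 and 0.183 FPKM, a difference of 7.75 ± 0.33 (SE). The claudin gene Cldn4 of tight junctions read 1083, 954, 334 and 935 FPKM against 0.0572 and 0.0698 FPKM, a difference of 9.47 ± 0.45 (SE). These genes were low in the hepatocyte libraries too, where Cdh1 read 1.27 and 5.49 FPKM, Epcam 0.125 and 0 FPKM and Cldn4 was listed at 0 in both. Cldn6, a claudin of embryonic epithelium, was nearly level across the 4 libraries, at 201, 192, 209.8 and 194 FPKM.

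Most bile duct genes tested were called higher, and those called lower were close to the share of all genes tested. Over all genes tested, 12.2% were called higher and 15.9% lower. Of 15 cholangiocyte genes tested, 10 were called higher and 2 lower, with a median of 3.36; 7 and 7 were called higher without fibroblast library 1 and 2 in turn. Krt7, a duct keratin, was at 447, 334, 85.8 and 126 FPKM against 0.335 and 3.27 FPKM, a difference of 6.40 ± 0.69 (SE). Sox9, the duct transcription factor, was near 1 FPKM or below in all 6 libraries, at 1.36, 0.117, 1.23 and 0.76 FPKM against 1.21 and 0.642 FPKM. Spp1, which encodes osteopontin and is used as a duct marker, was lower, at 84.9, 134, 15.1 and 3.73 FPKM against 2952 and 3402 FPKM, a difference of -6.69 ± 1.14 (SE). It is made by fibroblasts and macrophages as well.

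Plasma protein genes shared by fetal liver and visceral endoderm were high in all 4 hepatocyte-like libraries. Of 15 visceral endoderm genes tested, 13 were called higher and none lower, with a median log2 difference of 4.11; 8 and 8 were called higher without fibroblast library 1 and 2 in turn. Afp, alpha-fetoprotein of the fetal liver and yolk sac, stood at 2108, 2647, 364 and 1744 FPKM against 0.247 and 1.63 FPKM, and its log2 difference was 9.57 ± 0.71 (SE) (adjusted p = 1.3e-05). In hepatocytes it was at 9.99 and 7.77 FPKM and in tissue at 3.42 and 3.97 FPKM, so that each hepatocyte-like library was above each of these. Ttr, transthyretin, stood at 697, 437, 207 and 406 FPKM against 0 and 0.114 FPKM, a difference of 8.57 ± 0.95 (SE).

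Rhox5, an X-linked homeobox gene of extraembryonic and reproductive tissues, was among the most even, at 727, 735, 560.0 and 812 FPKM, and was listed at 0 in both fibroblast libraries (adjusted p = 3.1e-07). Rbp4, the retinol carrier, was at 1495, 2296, 285 and 355 FPKM against 12.5 and 5.08 FPKM, a difference of 6.41 ± 0.81 (SE). Ihh, a hedgehog ligand of visceral endoderm and gut, stood at 18.2, 5.31, 96.3 and 112 FPKM against 0.0793 and 0.0969 FPKM. It was higher in libraries 3 and 4, and its adjusted p of 0.0064 became 0.059 without fibroblast library 1 and 0.060 without library 2.

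Oncofetal genes did not move as a group. Of 13 tested, 3 were called higher and 1 lower, with a median of 0.69. The members called higher were Afp, Igf2 and Igf2bp1, of which 1 was called with only the 6 libraries in the fit, and 1 without each fibroblast library. Igf2, a fetal growth factor gene, was called at an adjusted p of 0.041, which became 0.085 with only the 6 libraries in the fit and 0.057 without fibroblast library 1 and 0.42 without library 2. Igf2 stood at 820.2, 472, 1162 and 1195 FPKM in hepatocyte-like cells and at 491 and 233 FPKM in fibroblasts, so that library 2 lay below fibroblast library 1, and it was at 0.742 and 1.04 FPKM in hepatocytes. H19, the noncoding RNA of the same imprinted locus, read 1965, 2446, 5561 and 11681 FPKM against 1659 and 522 FPKM and was not called (adjusted p = 0.057), although its adjusted p was 0.037 without library 1 and 0.048 without library 2. Hmga2, a chromatin protein gene of fetal mesenchyme, was lower, at 9.38, 3.37, 4.17 and 6.41 FPKM against 82.7 and 34.2 FPKM, a difference of -3.07 ± 0.45 (SE). Dlk1, a hepatoblast marker that fibroblasts also make, was at 1.3, 0, 7.31 and 25.9 FPKM against 104 and 15.6 FPKM and was not called (adjusted p = 0.074, and 0.014 without library 4). Lin28b, an RNA-binding protein gene of fetal liver, did not pass the filter, at 0, 0, 0.244 and 0.0881 FPKM against 0.121 and 0.063 FPKM.

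Some transcription factors of the hepatic endoderm were higher, and others were not called. Of 22 liver factors, 16 passed the filter and 9 were called higher, none lower, with a median log2 difference of 2.12; without fibroblast library 1 and 2 in turn, 8 and 8 were called. Hnf4a, the nuclear receptor that directs hepatocyte gene expression, stood at 48.3, 59.6, 38.6 and 89.8 FPKM against 0.0217 and 0 FPKM, a difference of 5.82 ± 0.33 (SE) (adjusted p = 2.9e-06). In hepatocytes it was at 163 and 155 FPKM. Foxa2, a pioneer factor of endoderm, was at 48.1, 33.7, 93 and 65.7 FPKM and was listed at 0 in both fibroblast libraries (adjusted p = 0.00057).

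Foxa3, the FOXA factor of mature liver, read 11.8, 17.6, 9.86 and 9.68 FPKM against 0.1 and 0 FPKM, a difference of 3.62 ± 0.29 (SE). Creb3l3, a liver and gut factor that responds to fasting, read 17.1, 28, 4.55 and 52.3 FPKM against 0.187 and 0 FPKM, a difference of 4.19 ± 0.71 (SE), with a wide spread among the hepatocyte-like libraries, and reached 239 and 209.9 FPKM in hepatocytes. Factors that fibroblasts also express were not called: Cebpa read 55.6, 30.5, 19 and 27.4 FPKM against 27.4 and 15.1 FPKM, and Cebpb, an acute-phase factor, read 147, 234, 60.2 and 134 FPKM against 311 and 245 FPKM. The adjusted p of Cebpb, 0.10, was 0.029 without hepatocyte-like library 2. Nr1i3 and Ppara, nuclear receptors of mature liver, did not pass the filter. They were at 0.0386, 0, 0.0822 and 0.325 FPKM and 1.3, 0.914, 0.249 and 0.15 FPKM in hepatocyte-like cells and at 80.6 and 113 FPKM and 31.4 and 32.3 FPKM in hepatocytes.

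Serum carrier genes were raised, with a wide spread between hepatocyte-like libraries. Of 27 albumin family and carrier genes, 23 passed the filter and 14 were called higher, none lower, with a median log2 difference of 3.58. Without fibroblast library 1 and 2 in turn, 8 and 7 were called. Alb, albumin, stood at 1899, 4514, 58.5 and 266 FPKM against 1.26 and 2.17 FPKM, without overlap, with a log2 difference of 7.83 ± 4.62 (SE) and an adjusted p of 0.23. With only the 6 libraries in the fit its adjusted p was 0.012. Alb is listed at 0 and 51325 FPKM in the hepatocyte libraries and at 44788 and 0 FPKM in the tissue libraries, and the values of 0 there, for a gene that all hepatocytes express, may be failed estimates. These 4 libraries entered the spread of the main test.

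Alb (chr5:90460897-90476602), Afp (chr5:90490737-90508907) and Afm (chr5:90518932-90553543), which encodes afamin, lie next to each other on chromosome 5. Afm was at 7.99, 4.55, 3.01 and 10.6 FPKM against 0.0501 and 0 FPKM, a difference of 2.76 ± 0.41 (SE). The ratio of levels within the locus differed between libraries: Afp exceeded Alb in libraries 1, 3 and 4, and Alb exceeded Afp in library 2. Trf, transferrin, read 2029.7, 2691, 106 and 173 FPKM against 11.7 and 8.78 FPKM, a difference of 5.66 ± 1.20 (SE), and its adjusted p of 0.0060 became 0.050 without fibroblast library 1 and 0.065 without library 2. Ambp, the bikunin precursor, read 170.4, 448, 7.31 and 21.2 FPKM against 0.0886 and 0.758 FPKM, a difference of 5.47 ± 1.32 (SE), and its adjusted p of 0.012 became 0.11 without fibroblast library 1 and 0.073 without library 2. The antitrypsin gene Serpina1a read 9.48, 33.3, 2.84 and 4.85 FPKM and was listed at 0 in both fibroblast libraries, with an adjusted p of 0.0080 that became 0.073 without fibroblast library 1 and 0.074 without library 2. It has near-identical neighbours among which reads may have been split. Hp, haptoglobin, showed no called difference, with 745, 1083, 52.1 and 68.2 FPKM against 321 and 206 FPKM, and only libraries 1 and 2 were above the fibroblasts. On the flow cell shared by libraries 3 and 4 and the fibroblasts it was called lower, at -2.09 (adjusted p = 0.0091).

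Apolipoprotein genes were mostly higher. Of 16 tested, 9 were called higher and 1 lower, with a median log2 difference of 3.18; without fibroblast library 1 and 2 in turn, 6 and 7 were called higher. Apoa1 stood at 4928, 1242, 1154 and 1503 FPKM against 0 and 0.709 FPKM, a difference of 10.43 ± 0.62 (SE) (adjusted p = 4.1e-06). In hepatocytes Apoa1 was at 18840.1 and 8265 FPKM. Apoc3, an inhibitor of lipoprotein lipase whose gene neighbours Apoa1 (chr9:46228580-46230466) at chr9:46232933-46235636, was at 137, 131, 72.2 and 205 FPKM and was listed at 0 in both fibroblast libraries (adjusted p = 2.1e-06). Apoa4 (chr9:46240696-46243459), an intestinal and hepatic apolipoprotein gene of the same cluster, was at 74.7, 40.9, 63.9 and 414 FPKM and was also listed at 0 in fibroblasts, with an adjusted p of 0.0069 that became 0.062 without fibroblast library 1 and 0.063 without library 2.

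Apoc2, the activator of lipoprotein lipase, read 633, 1356, 45.9 and 171 FPKM against 1.18 and 4.81 FPKM, a difference of 6.34 ± 1.24 (SE), and its adjusted p of 0.0039 became 0.059 without fibroblast library 1 and 0.025 without library 2. Apoa2, the second protein of high-density lipoprotein, read 25.9, 79.3, 67.4 and 114 FPKM against 0.936 and 0 FPKM, a difference of 5.53 ± 0.54 (SE). Apoe was abundant in both groups, at 3370.4, 7363, 338 and 1156 FPKM against 1493 and 355 FPKM, overlapped and was not called. Pltp, a phospholipid transfer protein, was the member called lower, at 2.34, 2.9, 11.4 and 8.47 FPKM against 61.8 and 124 FPKM, a difference of -3.83 ± 0.78 (SE), and its adjusted p of 0.0048 became 0.028 without fibroblast library 1 and 0.076 without library 2.

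Fibrinogen and other clotting factor genes rose in part. Of 21 coagulation genes, 15 passed the filter, 7 were called higher and 1 lower, with a median of 2.52; 4 and 4 were called higher without fibroblast library 1 and 2 in turn. Fgb, the fibrinogen beta chain, stood at 184, 285, 23.6 and 19.4 FPKM and was listed at 0 in both fibroblast libraries (adjusted p = 0.0013). Fga and Fgg, the genes of the remaining fibrinogen chains, read 169, 314, 26.2 and 20.5 FPKM against 0.635 and 0 FPKM and 93.3, 365, 25.9 and 19 FPKM against 0.497 and 0.152 FPKM, with differences of 5.87 ± 0.98 (SE) and 5.64 ± 0.98 (SE). F2, prothrombin, read 67.1, 113, 15.9 and 19.2 FPKM against 0 and 0.0372 FPKM, a difference of 5.31 ± 0.71 (SE). All 4 genes were higher in libraries 1 and 2 than in libraries 3 and 4. F9, clotting factor IX, did not pass the filter, at 0.636, 0, 0.0363 and 0 FPKM, and was at 70.8 and 68.4 FPKM in hepatocytes.

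Complement genes showed the opposite balance. Of 14 tested, 2 were called higher and 5 lower, with a median of -1.15; without fibroblast library 1 and 2 in turn, 1 and 1 were called higher and 3 and 6 lower. C4bp, the C4b-binding protein, was at 48.7, 29.6, 38.3 and 67.4 FPKM and listed at 0 in both fibroblast libraries (adjusted p = 4.0e-06). The members called lower, among them C1ra, C1s1, Cfd and Serping1, encode early components and regulators. Cfd, complement factor D, read 0, 10.2, 0 and 0 FPKM against 247 and 12.3 FPKM, and its adjusted p of 0.013 became 0.18 without fibroblast library 1 and 0.0067 without library 2. C1s1, a protease of the C1 complex, read 0.277, 3.2, 8.67 and 1.45 FPKM against 136 and 95.8 FPKM, a difference of -5.10 ± 0.79 (SE). Serping1, the C1 inhibitor, read 12.9, 12.4, 71.8 and 23.4 FPKM against 654 and 394 FPKM, a difference of -4.41 ± 0.61 (SE). C3, the central component, read 104, 117, 14.6 and 17.7 FPKM against 238 and 127 FPKM and was not called (adjusted p = 0.097, and 0.035 without library 2).

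Among cytochrome P450 genes, members of liver, gut and airway epithelium differed in behaviour. Of 39 in the table, 28 passed the filter, 10 were called higher and 3 lower, with a median of 2.30; 6 and 6 were called higher without fibroblast library 1 and 2 in turn. Cyp2s1, an enzyme of epithelia outside the liver, read 112, 205, 181 and 783 FPKM against 0.334 and 0.746 FPKM, a difference of 7.30 ± 0.67 (SE), and 0.0447 and 0 FPKM in hepatocytes. Cyp2c65, an enzyme of stomach and gut, read 26.8, 6.73, 31.3 and 66.8 FPKM and was listed at 0 in fibroblasts, hepatocytes and tissue (adjusted p = 0.00073).

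Enzymes found in adult liver were called higher in part. Cyp2d26 read 14.7, 32.3, 42.2 and 38.9 FPKM and Cyp2d10 read 44.3, 78.2, 8.46 and 5.46 FPKM, and both were listed at 0 in fibroblasts, with adjusted p of 4.0e-05 and 0.0058; they belong to a family of close copies among which reads may have been split. The adjusted p of Cyp2d10 became 0.056 without fibroblast library 1 and 0.057 without library 2. Cyp27a1, a sterol hydroxylase of bile acid synthesis, read 44.4, 56.8, 60.7 and 21 FPKM against 1.62 and 2.06 FPKM, a difference of 3.94 ± 0.41 (SE). Cyp3a11, a main drug-metabolising enzyme of mouse liver, stood at 169, 613, 1.03 and 0.326 FPKM in hepatocyte-like cells, at 0 in both fibroblast libraries and at 883 and 1696 FPKM in hepatocytes, and was not called (adjusted p = 0.16). Libraries 1 and 2 held nearly all of it. Cyp2e1, an ethanol-inducible liver enzyme, was listed at 0 in all 4 hepatocyte-like libraries and stood at 1699.9 and 2582 FPKM in hepatocytes. Cyp1b1, an enzyme of mesenchyme, was lower, at 0, 0, 0.59 and 0.814 FPKM against 102 and 134 FPKM, a difference of -6.50 ± 0.33 (SE). Cyp7b1, an oxysterol hydroxylase, was listed at 0 in all 4 hepatocyte-like libraries and stood at 69.3 and 22 FPKM in fibroblasts (adjusted p = 0.00016).

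Genes of nitrogen and glucose metabolism were called in both directions. Of 15 urea cycle and amino acid genes tested, 2 were called higher and 2 lower, with a median of 1.04, and of 10 gluconeogenesis and liver glycolysis genes, 2 were called higher and 2 lower, with a median of 1.25, where 28.1% of all genes tested were called in either direction. With fibroblast library 1 or 2 left out, limma called none of the urea cycle members and 2 and 2 of the gluconeogenesis members higher. Of the urea cycle members, 9 had an unadjusted p under 0.05 with all libraries. Cps1, the entry enzyme of the urea cycle, was at 24, 19.2, 1.85 and 0.941 FPKM against 0.0168 and 0 FPKM, with an adjusted p of 0.0496 that became 0.10 with only the 6 libraries in the fit and 0.21 without fibroblast library 1 and 0.22 without library 2. It was 0.086 without hepatocyte-like library 1 and 0.086 without library 2. Tat, a tyrosine aminotransferase that marks mature hepatocytes, was at 33.1, 55.8, 0.552 and 0.107 FPKM, was listed at 0 in fibroblasts and was not called (adjusted p = 0.20). Otc, the next enzyme of the cycle, did not pass the filter, at 0.254, 0, 0.436 and 0.385 FPKM, and was at 70.8 and 171 FPKM in hepatocytes.

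Ass1 and Arg1, urea cycle enzymes that fibroblasts and macrophages also use, read 257, 194, 82.2 and 74.5 FPKM against 233 and 173 FPKM and 55, 95, 2.14 and 1.58 FPKM against 45.6 and 195 FPKM, and were not called. On the shared flow cell both were called lower, Ass1 at -1.35 (adjusted p = 0.015) and Arg1 at -5.07 (adjusted p = 0.0081). Pklr, liver pyruvate kinase, read 9.34, 22.8, 14.2 and 8.89 FPKM against 0.0703 and 0 FPKM, a difference of 3.75 ± 0.57 (SE). The gluconeogenic genes G6pc, at 28.8, 29.4, 0.292 and 0.578 FPKM, and Pck1, at 30.4, 57.5, 0.315 and 0.92 FPKM, were not called, with adjusted p of 0.31 and 0.46. As with Cps1 and Tat, both of libraries 1 and 2 were above both of libraries 3 and 4.

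Bile acid and organic ion transporters were higher in part. Of 13 transporter genes tested, 4 were called higher and 1 lower, against 12.2% and 15.9% of all genes tested, with a median of 1.58, and 1 and 1 were called higher without fibroblast library 1 and 2 in turn. Slc51a, a subunit of the basolateral bile acid exporter of the ileum, read 18.4, 7.79, 18.6 and 17.6 FPKM and was listed at 0 in fibroblasts, hepatocytes and tissue (adjusted p = 4.7e-05). Abcb11, the bile salt export pump, was at 3.83, 5.84, 1.58 and 2.69 FPKM against 0.0191 and 0 FPKM and at 46.2 and 114 FPKM in hepatocytes, with an adjusted p of 0.013 that became 0.098 without fibroblast library 1 and 0.10 without library 2. Slco1b2, an uptake carrier of mature hepatocytes, did not pass the filter, at 0.307, 0.545, 0.0527 and 0.0664 FPKM, and was at 74.9 and 212 FPKM in hepatocytes.

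Genes of lipid metabolism were higher in part. Of 16 fatty acid oxidation genes tested, 8 were called higher and none lower, with a median of 1.35. Fabp1, the liver and gut fatty acid binding protein, read 91.1, 83.9, 13.3 and 11.9 FPKM and was listed at 0 in fibroblasts (adjusted p = 0.0013). The general mitochondrial genes Hadha, at 54.6, 52.3, 54.4 and 68.9 FPKM against 48.5 and 40.6 FPKM, and Cpt1a, at 38.6, 28.4, 33.6 and 21.4 FPKM against 41 and 32.6 FPKM, were not called. Of the list, 4 and 3 members were called higher without fibroblast library 1 and 2 in turn.

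Cholesterol synthesis and uptake genes rose together. Of 21 tested, 17 were called higher and none lower, with a median of 2.18, and 7 and 10 were called without fibroblast library 1 and 2 in turn. Msmo1, a sterol demethylation enzyme, read 87.6, 68.6, 58.4 and 123 FPKM against 4.93 and 9.68 FPKM, a difference of 3.37 ± 0.49 (SE). Its 4 hepatocyte-like values did not overlap the fibroblasts, as in 51.3% of all genes tested. Insig1, a sterol-regulated brake on the pathway, read 41.5, 33.9, 157 and 556 FPKM against 4.45 and 8.42 FPKM, and its adjusted p of 0.016 became 0.14 without fibroblast library 1 and 0.080 without library 2. Sqle, squalene epoxidase, read 45.6, 29.1, 38.9 and 77.5 FPKM against 4.98 and 7.22 FPKM and just missed the threshold (adjusted p = 0.051), which it passed with only the 6 libraries in the fit (0.0035). Dhcr7, at 12.3, 17.3, 15.8 and 10.6 FPKM against 7.45 and 20.1 FPKM, was not called.

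**Figure D3:**
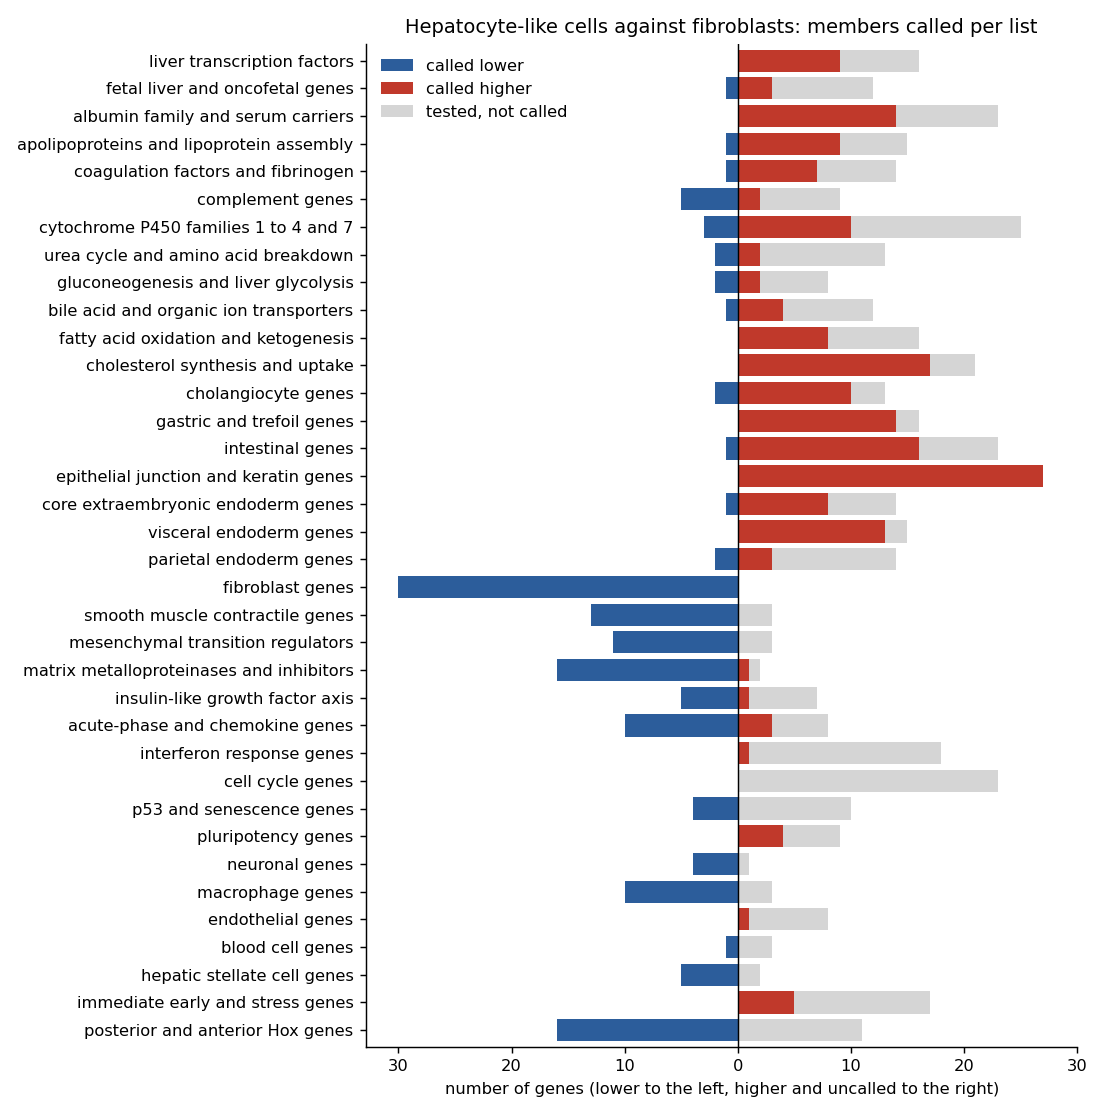
Number of genes called per list. Blue bars to the left count members called lower in hepatocyte-like cells, red bars to the right count members called higher, and grey bars count members tested and not called. Every tested member of the epithelial list is higher and every tested member of the fibroblast list is lower, while none of the 23 cell cycle genes is called.

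Transcription factors of extraembryonic endoderm, the stage before the hepatocyte-like state, were higher than in fibroblasts. Of 15 core genes tested, 8 were called higher and 1 lower, with a median of 2.35; 5 and 4 were called higher without fibroblast library 1 and 2 in turn. Sox17, an endoderm factor, stood at 67.4, 28.9, 295 and 166 FPKM and was listed at 0 in both fibroblast libraries (adjusted p = 0.00020). Gata4, a factor of endoderm and heart, read 26.2, 18.7, 148 and 154 FPKM against 0.782 and 0.151 FPKM, a difference of 5.37 ± 0.88 (SE) (adjusted p = 0.0015). Gata6, its relative, read 16.6, 7.76, 54.2 and 58.3 FPKM against 2 and 1.22 FPKM, a difference of 3.37 ± 0.74 (SE), and its adjusted p of 0.0074 became 0.052 without fibroblast library 1 and 0.084 without library 2. All 3 were higher in libraries 3 and 4 than in libraries 1 and 2, as were 13 of the 15 members, against 26.9% of all genes tested.

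Sox7, a factor of primitive and parietal endoderm, was at 0, 0, 8.1 and 0.298 FPKM against 1.72 and 2.32 FPKM, with library 3 alone above the fibroblasts, and was not called (adjusted p = 0.54, and 0.0020 without library 3). Dab2, an endocytic adaptor that fibroblasts and macrophages also express, read 16.1, 16.2, 94.6 and 58.8 FPKM against 55.2 and 118 FPKM and was not called. Pdgfra, a receptor of primitive endoderm and of mesenchyme, was the member called lower, at 1.37, 1.18, 30.5 and 4.46 FPKM against 75.9 and 63.2 FPKM, a difference of -3.68 ± 0.93 (SE), and its adjusted p of 0.015 became 0.12 without fibroblast library 1 and 0.098 without library 2, and 0.087 on the shared flow cell. Library 3 held more of it than the other hepatocyte-like libraries.

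Of all genes tested, 12.2% were called higher and 15.9% lower. Genes of parietal endoderm, which builds a thick basement membrane, were called at close to these shares. Of 16 genes tested, 3 were called higher and 2 lower, and the median of 0.81 turned to -0.19 without hepatocyte-like library 3 and was 1.91 on the shared flow cell, where 7 were called higher and none lower. Without fibroblast library 1 and 2 in turn, 3 and 3 were called higher and 0 and 0 lower. The members called higher were the keratins Krt8 and Krt18, which stand also in the epithelial list, and Pga5, a pepsinogen gene, at 140.2, 64.2, 165 and 332 FPKM against 0 and 0.189 FPKM. Lama1, the laminin chain of early basement membrane, read 1.87, 0.508, 219 and 23.5 FPKM against 0.0479 and 0.291 FPKM and was not called (adjusted p = 0.14, and 0.046 without library 2). Col4a1, a type IV collagen chain, read 114, 60.9, 1033 and 481 FPKM against 113 and 162 FPKM, and Sparc, a matrix glycoprotein, read 151, 77.9, 3196 and 929.9 FPKM against 1917 and 1883 FPKM. Neither was called, and in Sparc the adjusted p of 0.25 was 0.045 without library 3. The fibroblast values of Sparc lay inside the range of the hepatocyte-like libraries, as did both for Col4a1.

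The fibroblast transcript set was lower throughout. Of 32 listed fibroblast genes, 30 passed the filter and all 30 were called lower, against 15.9% of all genes tested, with a median log2 difference of -6.12. Their sum fell from 2.21 and 2.71% of the summed FPKM in the fibroblast libraries to 0.0354, 0.0231, 0.125 and 0.0263% in the hepatocyte-like libraries. Without fibroblast library 1 and 2 in turn, 20 and 20 of the 24 members that still passed the filter were called. Col1a1 (chr11:94936224-94953042), a chain of type I collagen, stood at 2.04, 0.32, 29.3 and 0.539 FPKM against 859 and 1367 FPKM, a difference of -8.20 ± 1.07 (SE) (adjusted p = 0.00039). Col1a2, its partner chain, read 0, 0.0595, 8.95 and 0.591 FPKM against 662 and 1242 FPKM, a difference of -8.81 ± 0.83 (SE).

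Thy1, a surface antigen used to sort fibroblasts, read 0, 0, 0.0609 and 0 FPKM against 229.7 and 328 FPKM, a difference of -8.09 ± 0.29 (SE). Bgn, biglycan, read 0, 0.908, 3.07 and 11.4 FPKM against 1953 and 2634 FPKM, a difference of -9.50 ± 0.94 (SE). Lox, which crosslinks collagen, read 0.975, 0, 28 and 7.12 FPKM against 939 and 1362 FPKM, a difference of -7.93 ± 1.09 (SE). Thy1 was close to 0 in all 4 hepatocyte-like libraries, while Col1a1, Col1a2 and Lox were highest in library 3. Vim, the mesenchymal filament vimentin, kept a higher level, at 68, 24.7, 310.4 and 32.8 FPKM against 962 and 995 FPKM. Its adjusted p of 0.013 became 0.095 without fibroblast library 1 and 0.10 without library 2, and 0.072 on the flow cell shared by libraries 3 and 4 and the fibroblasts.

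Regulators of the mesenchymal state, which are transcription factors, cadherins and genes of transforming growth factor beta signalling, fell with the matrix genes. Of 14 tested, 11 were called lower and none higher, with a median of -4.08, and 5 and 5 were called lower without fibroblast library 1 and 2 in turn. Prrx1, a homeobox factor of limb and skin mesenchyme, read 0.157, 0, 0.939 and 1.93 FPKM against 105 and 139.7 FPKM, a difference of -6.25 ± 0.43 (SE). Twist1 read 3.99, 0, 2.52 and 1.17 FPKM against 101 and 49.1 FPKM, a difference of -4.85 ± 0.63 (SE), and Snai2, a repressor of E-cadherin, read 0, 0, 1.22 and 0 FPKM against 24.9 and 14.5 FPKM, a difference of -4.04 ± 0.45 (SE). Cdh11, a mesenchymal cadherin, read 0, 0, 0.239 and 0.278 FPKM against 71.2 and 78.2 FPKM, a difference of -6.07 ± 0.25 (SE). Cdh2, N-cadherin, was not called, at 2.27, 1.33, 32.6 and 1.46 FPKM against 16.5 and 11.4 FPKM, and library 3 alone was above the fibroblasts. Its adjusted p of 0.26 was 0.0030 without library 3.

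Contractile genes gave the same direction. Of 16 smooth muscle genes tested, 13 were called lower and none higher, with a median of -3.20; 7 and 7 were called lower without fibroblast library 1 and 2 in turn. Acta2, smooth muscle actin, read 1.85, 1.87, 116 and 0.818 FPKM against 712 and 887 FPKM, a difference of -6.94 ± 1.40 (SE), and its adjusted p of 0.0047 became 0.043 without fibroblast library 1 and 0.052 without library 2, and 0.080 on the shared flow cell. Tagln, transgelin, read 6.75, 0.338, 47.3 and 2.13 FPKM against 561 and 867 FPKM, a difference of -6.79 ± 1.12 (SE). Library 3 held the highest value of both among the hepatocyte-like libraries. Tagln2, a related gene expressed more widely, read 407, 239, 597 and 387 FPKM against 225 and 201 FPKM and was not called.

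Matrix metalloproteinase genes were among the largest decreases. Of 18 protease and inhibitor genes tested, 16 were called lower and 1 higher, with a median of -4.40; of the 9 that passed the filter without fibroblast library 1 and 2 in turn, 6 and 5 were called lower. Mmp3 (chr9:7445822-7455975) read 0, 0, 0.409 and 0.515 FPKM against 2105 and 1488 FPKM, a difference of -10.52 ± 0.31 (SE) (adjusted p = 3.1e-07). Mmp13 (chr9:7272514-7283331) read 0, 0, 0.26 and 0.0469 FPKM against 265 and 905 FPKM, a difference of -8.84 ± 0.44 (SE). Both genes, whose promoters with their AP-1 motifs are printed above, lie in the metalloproteinase cluster of chromosome 9. Mmp12 (chr9:7344381-7369499), the macrophage elastase of the same cluster, was listed at 0 in all 4 hepatocyte-like libraries and stood at 48.1 and 117 FPKM in fibroblasts (adjusted p = 2.5e-06). Mmp2, the type IV collagenase, read 0.759, 0, 0.542 and 0.0804 FPKM against 655 and 515 FPKM, a difference of -8.80 ± 0.34 (SE). Mmp15, a membrane-bound enzyme of epithelia, was the member called higher, at 44.2, 20.8, 53.3 and 50.1 FPKM against 0.803 and 0.423 FPKM, a difference of 4.67 ± 0.64 (SE).

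Secreted inflammatory genes were lower in most cases. Of 18 acute-phase and chemokine genes tested, 10 were called lower and 3 higher, with a median of -2.94, and 8 and 9 were called lower without fibroblast library 1 and 2 in turn. Saa3, a serum amyloid gene of activated fibroblasts and macrophages, read 358, 587, 1586 and 1193 FPKM in hepatocyte-like cells against 22142 and 14346 FPKM in fibroblasts, a difference of -4.49 ± 0.79 (SE). Cxcl5, a neutrophil chemokine, read 17.8, 16, 8.56 and 4.82 FPKM against 1823 and 642 FPKM, a difference of -6.55 ± 0.54 (SE). Ccl2, a monocyte chemokine, read 17.1, 23.4, 33.2 and 4.49 FPKM against 853 and 988 FPKM, a difference of -5.76 ± 0.62 (SE). Ptx3, a pentraxin made outside the liver, read 4.52, 0, 8.78 and 0.207 FPKM against 1250.2 and 654 FPKM, a difference of -8.32 ± 0.85 (SE). Saa1, the hepatic serum amyloid gene, was higher, at 55.9, 156, 251 and 126 FPKM against 8.88 and 8.33 FPKM, a difference of 3.76 ± 0.73 (SE), although reads may be shared with its close copy Saa2. Lcn2, lipocalin 2, read 1202, 2023, 499 and 95.8 FPKM against 6487 and 2368 FPKM and was not called (adjusted p = 0.19).

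Macrophage transcripts were present in the fibroblast libraries, and in library 2 more than in library 1. The 5 macrophage markers summed to 127 and 751 FPKM there and to 51.9, 31.1, 24.1 and 67.3 FPKM in the hepatocyte-like libraries. Of 13 macrophage genes tested, 10 were called lower and none higher, with a median of -5.93, and 4 and 4 were called lower without fibroblast library 1 and 2 in turn. Lyz2, lysozyme of myeloid cells, read 1.23, 0, 3.49 and 1.91 FPKM against 1499 and 7826 FPKM, a difference of -10.53 ± 0.91 (SE). Adgre1, which encodes the F4/80 antigen, read 0, 0, 0.157 and 0.158 FPKM against 47.7 and 248 FPKM, a difference of -6.68 ± 0.66 (SE). The complement gene C1qa was listed at 0 in all 4 hepatocyte-like libraries and stood at 15.5 and 188 FPKM in fibroblasts (adjusted p = 0.0052). Csf1r, the receptor for macrophage colony-stimulating factor, did not follow them, at 26.5, 16.5, 17.4 and 31.2 FPKM against 11.2 and 43.1 FPKM. The part of these transcripts in the lower level of Saa3, Mmp12 and the chemokines in hepatocyte-like cells was not tested.

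Among the insulin-like growth factor genes, 5 of 12 tested were called lower and 1, Igf2, higher, with a median of -1.79; 3 and 4 were called lower without fibroblast library 1 and 2 in turn. Igfbp3, the main carrier of the growth factors, read 4.6, 3.13, 1.86 and 9.56 FPKM against 674 and 576 FPKM, a difference of -6.92 ± 0.63 (SE). Igf1 read 0, 0, 2.99 and 3.73 FPKM against 66.5 and 33.9 FPKM, a difference of -4.54 ± 0.66 (SE). Igfbp1, the liver-restricted binding protein, was at 71, 367, 11 and 29.8 FPKM against 0.0705 and 0 FPKM, without overlap, and had an adjusted p of 0.055, which was 0.013 with only the 6 libraries in the fit and 0.044 without library 3.

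Proliferation genes did not separate the groups. None of 23 cell cycle genes tested with limma was called, while 3 had an unadjusted p under 0.05. Without hepatocyte-like library 2, 1 was called, and without library 4, 2 were called. The median log2 difference was 0.54. Cdk1, the mitotic kinase, read 22, 28.7, 94.7 and 36.7 FPKM against 22.8 and 39.2 FPKM, and Mki67, a marker of cycling cells, read 1.82, 0, 7.51 and 2.31 FPKM against 1.53 and 4.56 FPKM. In both genes library 3 was the highest of all 6 libraries.

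The 4 hepatocyte-like libraries differed among themselves in the levels of many liver function genes. Of 23 serum carrier genes tested, 19 were higher in both libraries 1 and 2 than in libraries 3 and 4, as were 13 of 15 coagulation genes and 11 of 15 urea cycle and amino acid genes, against 3486 (23.4%) of all genes tested. Other liver lists showed it less often, with 8 of 16 apolipoprotein, 14 of 28 cytochrome P450, 7 of 16 transcription factor and 3 of 10 gluconeogenesis genes. At least 2 log2 units separated the pairs in 11 of the serum carrier genes, 6 of the coagulation genes and 6 of the urea cycle genes, against 161 (1.08%) of all genes tested. In the other direction, 13 of 15 core extraembryonic endoderm genes, 13 of 16 parietal endoderm genes, 18 of 24 intestinal genes and 8 of 9 pluripotency genes were higher in libraries 3 and 4, against 26.9% of all genes tested. These counts include genes that passed the filter through 1 pair alone, as Lin28a did through libraries 3 and 4. Tat did so through libraries 1 and 2. Of 17 listed pluripotency genes, 8 did not pass the filter. The epithelial list showed no such split, with 6 genes one way and 4 the other among 27. These counts describe 2 libraries against 2 and were not tested, and the flow cell moves with the split: libraries 3 and 4 were run together. On their flow cell, which both fibroblast libraries share, some further genes named here that were not called with all libraries were called. Those higher were Alb, Muc5ac, H19, Sqle, Lama1, Col4a1, Tagln2, Igfbp1, Lin28a, Hba-a1 and Hba-a2, and those lower were Hp, Arg1, Ass1, C3, Cebpb and Lcn2.

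Mat1a, the liver enzyme that makes S-adenosylmethionine, shows the pattern at 77.1, 88.1, 2.38 and 0.538 FPKM. Lin28a, an RNA-binding protein of embryonic cells, shows its opposite at 0.356, 0, 17.1 and 19.1 FPKM, with fibroblasts at 0.0274 and 0 FPKM. Against fibroblasts, neither was called, with adjusted p of 0.11 and 0.18. Mat1a was called when libraries 1 and 2 alone were set against the fibroblasts (adjusted p = 0.0011), a comparison added after the values had been seen, and also without library 4 (0.030). Lin28a was called when libraries 3 and 4 alone were set against them (adjusted p = 0.0017). Hba-a1, alpha-globin, was also higher in libraries 1 and 2, at 216, 66.1, 4 and 3.08 FPKM against 0.787 and 0 FPKM in fibroblasts, and was not called (adjusted p = 0.070, 0.039 without library 3 and 0.031 without library 4). Hbb-bs, an adult beta-globin gene, was listed at 0 in all 4 hepatocyte-like libraries. Reads of Hba-a1 cannot be told from those of its near-identical copy Hba-a2.

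**Figure D4:**
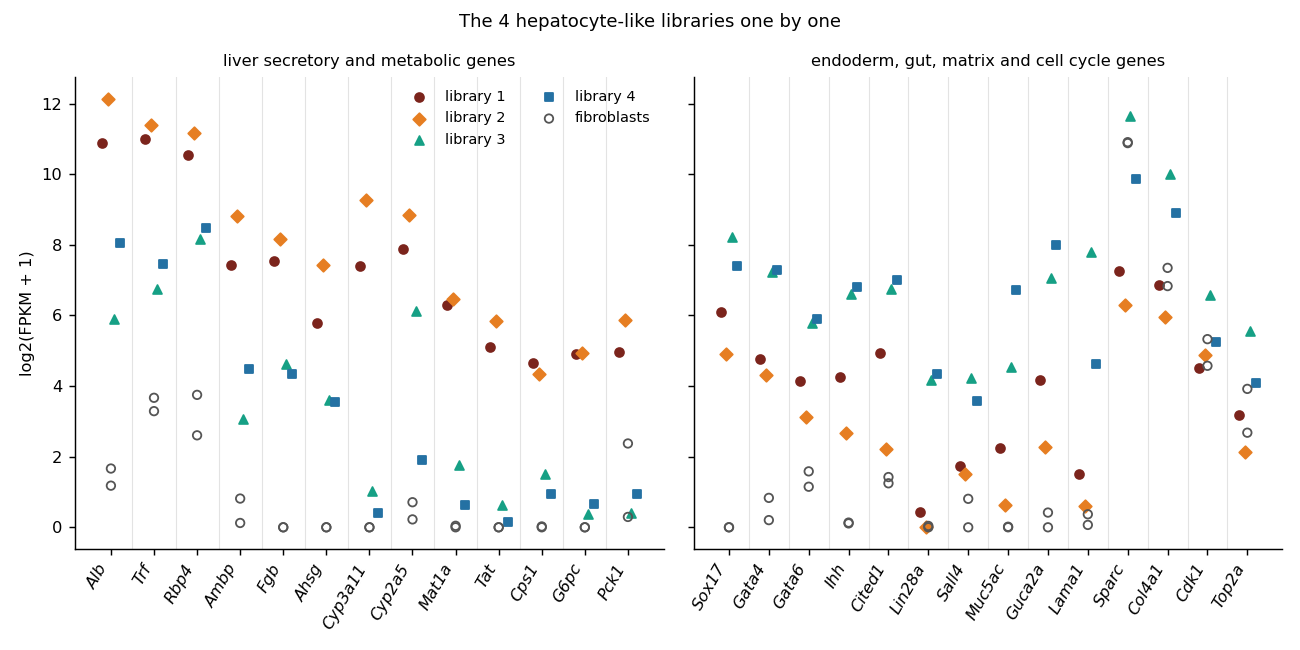
The 4 hepatocyte-like libraries shown one by one, with the 2 fibroblast libraries as open circles, in log2(FPKM + 1). In the left panel libraries 1 and 2 lie above libraries 3 and 4 for every liver gene plotted, among them Cyp3a11, Mat1a and Tat. The genes plotted are a selection, and liver genes not plotted, such as Apoc3 and Apoa2, do not show this order. In the right panel libraries 3 and 4 lie above libraries 1 and 2 for Sox17, Gata4, Gata6, Ihh, Cited1, Lin28a, Lama1 and Sparc.

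**Figure D5:**
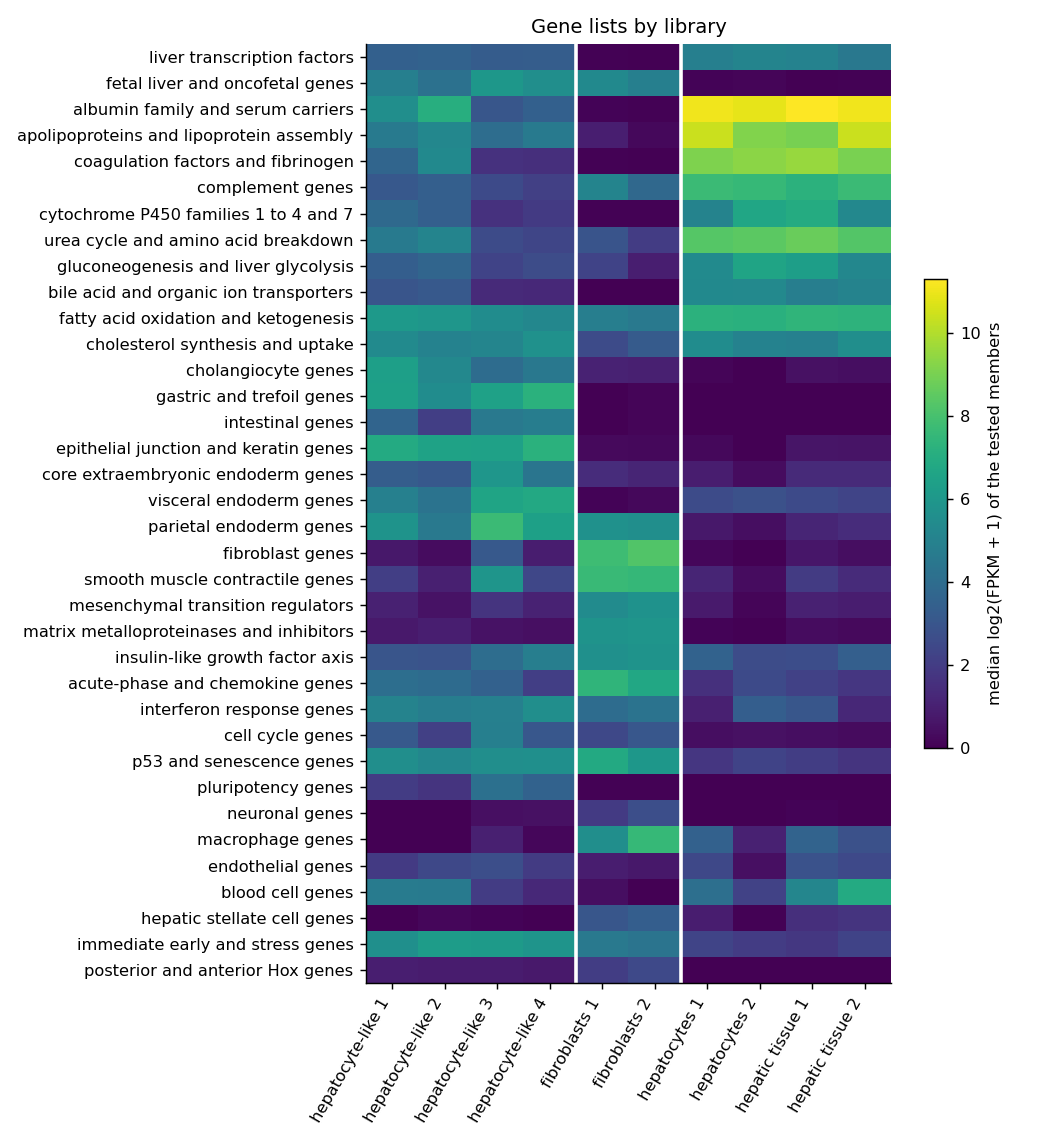
Median log2(FPKM + 1) of the tested members of each gene list in each library of the hepatic table. Rows are lists and columns are libraries. Liver transcription factors are close to each other in the 4 hepatocyte-like libraries, at medians of 3.27 to 3.53, while serum carriers range from 3.01 to 7.11 and reach 10.89 to 11.30 in hepatocytes and tissue. Gastric, intestinal and epithelial lists are high in hepatocyte-like cells only.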

How the data were processed

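RNA selected by poly-T beads was sequenced, per the labels' protocols, and the authors deposited 1 table of 10 libraries with a value per gene. The values were read as FPKM, judged from their range, since the deposited table of these libraries names no unit and another table of the series names FPKM in its header. The submitters' processing notes name the tool TopHat2 and the genome build mm10, without saying how they were used. The counting tool and annotation are not given in the sources used here, nor whether strand was used. Depth was estimated from the smallest steps between values.

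Of 48396 entries, 118 with a repeated ID were dropped and 48278 were used. Symbols and coordinates (mm10) came from GENCODE vM21, which matched 99.2% of IDs. Differences were computed with limma 3.58.1 in R 4.3.3, with a variance trend, on log2(FPKM + 1), with all 10 libraries in 1 fit and genes of at least 1 FPKM in 2 of the 6 libraries compared. A log2 difference on this scale understates the change of low genes. The test was checked on simulated data. Alternatives were another pseudocount, no filter, median-ratio scaling, the 6 libraries alone, 1 flow cell and each library left out.

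The members and the 36 gene lists were chosen with earlier results of these data known. Genes were named by a rule: the 15 largest differences in each direction with a group mean of at least 10 FPKM, up to 5 called and 3 uncalled members of each list, the cell type markers and a set of textbook genes. Which of these are printed, and the genes outside the rule (Guca2a, Lgr5, Cldn6, Nr1i3, Ppara, Ahsg, Afm, Pltp, F9, Cyp2c65, Cyp2d10, Cyp27a1, Cyp2e1, Mat1a, Otc, Slco1b2, Cpt1a, Hadha, Ihh, Cited1, Lama1, Mmp15, Saa1 and Top2a), were chosen after their values were seen. Groups came from the labels, and libraries of neurons and other cells were not used here. Some genes are not reported here.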

Additional observations from a re-analysis of the deposited data

Results flagged for a closer look

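Of 152 named genes whose values differed among the 4 hepatocyte-like libraries, 11 had 1 library far from the other 3 on the log2(FPKM + 1) scale, by Dixon's gap test, which flags about 1 in 20 groups by chance. Library 3 accounted for 6 of them. It was above the rest in the mesenchymal genes Acta2 (116 FPKM), Cdh2 (32.6 FPKM), Snai2 (1.22 FPKM) and Thy1 (0.0609 FPKM) and in the endoderm factor gene Sox7 (8.10 FPKM), and below the rest in the claudin gene Cldn4 (334 FPKM). Library 2 was below the rest in Slc51a (7.79 FPKM) and above them in Cfd, complement factor D (10.2 FPKM). Library 4 was above the rest in Hadha (68.9 FPKM) and Cdx1 (0.0759 FPKM), and library 1 in F9 (0.636 FPKM). The values of Cdx1, F9 and Thy1 are under 1 FPKM. In Cdx1, Thy1, Snai2 and Cfd the other 3 libraries were all listed at 0. Any value above 0 is then flagged, and the rate of 1 in 20 does not hold for these genes.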

How the results depend on the processing

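Of the genes tested with limma, 4191 were called with all libraries, 1821 higher and 2370 lower. With each library left out in turn, 1356 to 4452 genes were called, 756 to 2042 higher and 600 to 2548 lower. The low ends came from leaving out fibroblast library 1 (1373 called, 768 higher, 605 lower) or 2 (1356, 756, 600), where 1 library forms the group and genes of fibroblasts alone fail the filter. Of 97 named genes called with all libraries and still tested, 22 and 23 lost the call in these fits, and 3 to 6 of 108 or 109 lost it in every other fit. The count was 3887 with a pseudocount of 0.1 FPKM, 3768 with no filter on low values, 3806 with median-ratio scaling, 3757 with only the 6 libraries in the fit and 4126 on the shared flow cell. A comparison of hepatocyte-like libraries 1 and 2 alone with the fibroblasts, chosen after seeing the data, called 5438. Median-ratio scaling moved the median of all genes from 0.097 to -0.018 and the share of higher among called genes from 43.5 to 38.8%. With libraries 1 and 2 alone, Hp turned from -0.15 to 1.80, and the median of the parietal endoderm list turned to -0.97 and of the cell cycle list to -0.22. The parietal median ranged from -0.19 without hepatocyte-like library 3 to 1.17 without library 2 and was 1.91 on the shared flow cell, where Hp was -2.09, and the urea cycle median was -0.25 on the shared flow cell. The cause of these reversals was not tested. No paired analysis was possible because the labels number no libraries across groups. Depth is known only as an estimate, so levels under 1 FPKM rest on few fragments.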

Other observations

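The counts of members called in this section are to be read against all genes tested, of which 12.2% were called higher and 15.9% lower. Position-specifying Hox genes were lower in hepatocyte-like cells in part. Of 30 listed, 27 passed the filter, 16 were called lower and none higher, with a median log2 difference of -1.32, and 2 and 3 of the 16 that passed the filter without fibroblast library 1 and 2 in turn were called lower. Hoxa9 read 1.19, 3.08, 1.98 and 2.15 FPKM in hepatocyte-like cells against 17.7 and 14.9 FPKM in fibroblasts. Hoxb9 read 2.6, 4.36, 3.81 and 2.74 FPKM against 6.15 and 7.87 FPKM and was not called, with a log2 difference of -0.88 ± 0.28 (SE). Of 15 neuronal genes in the table, 10 did not pass the filter, which a gene can pass through the fibroblast libraries alone. Of the 5 tested, 4 were called lower, against 15.9% of all genes tested. Their median log2 difference was -2.16, and the list had -0.17 with no filter on low values. Gap43, a growth cone protein gene called lower, read 0, 0, 0.387 and 0.0975 FPKM against 24.7 and 17.3 FPKM. Stmn2, a microtubule regulator of neurons also called lower, read 0, 0, 0.863 and 3.56 FPKM against 185 and 27.8 FPKM. Of 14 genes of the p53 response, 4 were called lower and none higher, among them Ccng1 at 84.5, 45.2, 58.6 and 53.3 FPKM against 209.8 and 132 FPKM, with an adjusted p of 0.021 that became 0.23 without fibroblast library 1 and 0.072 without library 2.

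Of 17 listed pluripotency genes, 9 passed the filter and 4 were called higher, against 12.2% of all genes tested. With only the 6 libraries in the fit, 2 were called higher. The median log2 difference was 2.22, and 0.08 with no filter on low values. Klf5, which is also a factor of gut epithelium, read 43.9, 45, 63.2 and 146 FPKM against 10.3 and 3.72 FPKM, and Sall4, a factor of embryonic and extraembryonic stem cells, read 2.3, 1.82, 17.9 and 10.9 FPKM against 0.749 and 0 FPKM, with an adjusted p of 0.035 that became 0.11 without fibroblast library 1 and 0.27 without library 2. Of 17 immediate early and stress genes, 5 were called higher and 1 without each fibroblast library. Fos, an AP-1 subunit, read 48.9, 46.5, 559 and 203 FPKM against 13.6 and 8.71 FPKM, with an adjusted p of 0.018 that became 0.089 without fibroblast library 1 and 0.15 without library 2. Of 18 interferon response genes, 1 was called, Oas1a at 54.1, 37.2, 28 and 49 FPKM against 9.56 and 12.4 FPKM, with an adjusted p of 0.022 that became 0.18 without fibroblast library 1 and 0.11 without library 2. That 1 of 18 interferon response genes was called higher is below the share of 12.2% of all genes tested. Of 8 endothelial genes tested, 1 was called higher, close to that share. Of 7 hepatic stellate cell genes tested, 5 were called lower, against 15.9% of all genes tested. They were Cygb, Des, Hgf, Ngfr and Pdgfrb, of which Pdgfrb stands also in the fibroblast list and Des in the smooth muscle list.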
